A study of Mus musculus with 2 samples.

Results

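The genes described here are 10 immediate-early and AP-1 genes of the mouse, Fos, Fosb, Fosl2, Jun, Junb, Jund, Egr1, Ier2, Ier3 and Maff. Every probe set of the array that the platform annotation assigns to a single gene symbol, and whose symbol is one of these 10, was taken, which gave 11 probe sets of 23521 with a single symbol and 10 genes of 22180. Jund had 2 probe sets and each other gene had 1. The samples were 2 stable derivatives of a Niwa mouse embryonic stem cell line, EWS-OCT4A-GFP and the control GFP, with 1 sample of each. The sources used here do not say whether a sample's value is from 1 array or the mean of duplicate arrays. Both were kept in LIF-containing stem cell medium and both were given doxycycline at 1 µg/ml, which per the labels' protocols lowers endogenous OCT-4, so the control received the same treatment. EWS-OCT4A joins the EWS protein to OCT4A, the pluripotency isoform encoded by POU5F1. The duration of the treatment, the promoter of the transgenes and whether a line is a single clone are not given in the sources used here, and no sample without doxycycline was included, so a difference cannot be assigned to one line or the other.

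AP-1 is a dimeric transcription factor built from FOS, JUN, ATF and MAF family proteins, which pair through a leucine zipper. JUN proteins can pair among themselves or with FOS proteins, whereas FOS proteins need a partner. Many of their genes, together with the zinc finger gene Egr1, are immediate-early genes, which are transcribed within minutes of a growth factor or stress signal without new protein synthesis and whose transcripts are short-lived. ERK, acting through the ternary complex factors and SRF, is the best known input to Fos and Egr1, while the JNK kinases phosphorylate JUN.

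Of the 10 genes, 4 were lower by 2-fold or more in EWS-OCT4A-GFP cells (Jund, Jun, Fosl2 and Fos), 1 was higher by that much (Ier2) and 5 were within 2-fold (Maff, Junb, Fosb, Egr1 and Ier3). All 4 lower genes were among the 6 members of the FOS and JUN families. The share of all 13516 genes above a floor of 4.10 on the log2 scale that passed the same threshold was 11.9% in the lower and 9.31% in the higher direction, against 40.0% (4 genes) and 1 gene of the 10. The share in the higher direction was therefore close to that of all genes. The 10 genes were chosen with earlier results of these data known, so their contrast with all genes is a description only. The floor is the median of all deposited values, and it was applied to the higher value of each pair. All 10 genes passed it. With a threshold of 1.5-fold the counts were still 4 and 1, where all genes gave 20.6% and 20.0%. With 3-fold Jund and Jun were lower and Ier2 higher, where all genes gave 5.82% and 3.43%. The median difference of the 10 genes was -0.38, beside 0.03 over all genes at or above the floor. With 1 sample per group, no value has an error, the conditions cannot be tested, and counts of genes past 2-fold are sizes in this pair of samples.

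**Figure D1:**
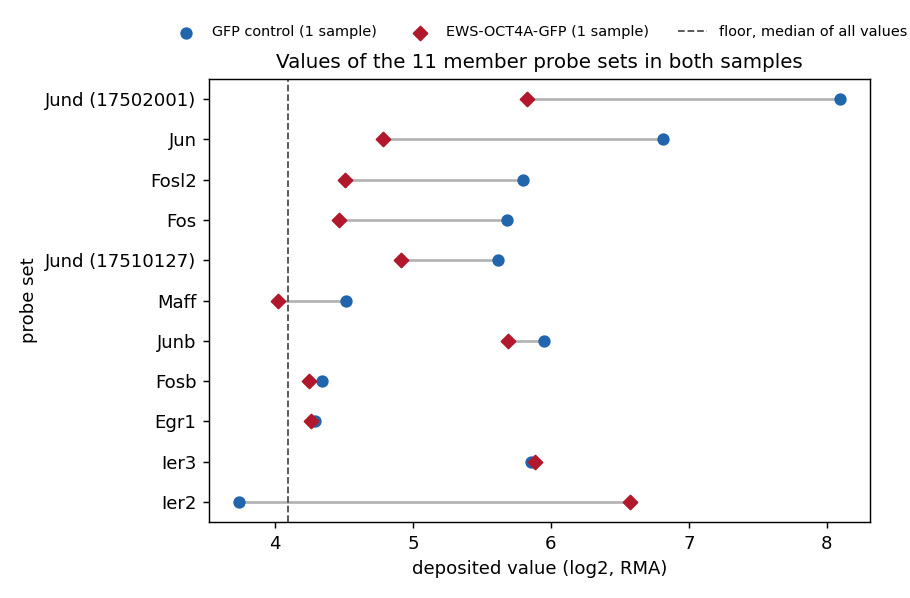
Deposited log2 value (horizontal axis) of each of the 11 probe sets (vertical axis) in the GFP control (circles) and in EWS-OCT4A-GFP (diamonds), 1 sample each. The circle lies clearly to the right for Jund (17502001), Jun, Fosl2 and Fos, the order is turned for Ier2, and the symbols nearly coincide for Egr1 and Ier3. The dashed line is the floor of 4.10.

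The proximal promoters of the 4 lower genes are printed here because these genes share a direction, together with one window of Maff, which held the complete cyclic AMP response element TGACGTCA. The sequences are the 250 bases before the annotated start, from RefSeq for build GRCm38.p6, read 5′ to 3′ on the strand of the gene. Capitals mark matches to the motifs searched.
Fos, chr12:85473640-85473889, + strand: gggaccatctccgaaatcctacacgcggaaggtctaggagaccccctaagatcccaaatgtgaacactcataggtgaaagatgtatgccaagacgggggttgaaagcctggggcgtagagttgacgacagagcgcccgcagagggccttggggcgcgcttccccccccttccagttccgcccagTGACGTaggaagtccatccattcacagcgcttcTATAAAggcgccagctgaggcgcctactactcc
Jun, chr4:95052223-95052472, - strand: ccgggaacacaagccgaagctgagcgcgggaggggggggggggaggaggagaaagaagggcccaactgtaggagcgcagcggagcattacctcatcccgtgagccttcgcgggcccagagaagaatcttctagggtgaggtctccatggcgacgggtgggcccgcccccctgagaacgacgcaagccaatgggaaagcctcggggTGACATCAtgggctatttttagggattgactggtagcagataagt
Fosl2, chr5:32136222-32136471, + strand: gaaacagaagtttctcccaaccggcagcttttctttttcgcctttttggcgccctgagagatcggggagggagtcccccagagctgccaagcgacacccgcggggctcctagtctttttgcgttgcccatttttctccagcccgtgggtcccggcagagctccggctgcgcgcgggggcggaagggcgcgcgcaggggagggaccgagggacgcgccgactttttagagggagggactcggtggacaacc
Jund, chr8:70697489-70697738, + strand: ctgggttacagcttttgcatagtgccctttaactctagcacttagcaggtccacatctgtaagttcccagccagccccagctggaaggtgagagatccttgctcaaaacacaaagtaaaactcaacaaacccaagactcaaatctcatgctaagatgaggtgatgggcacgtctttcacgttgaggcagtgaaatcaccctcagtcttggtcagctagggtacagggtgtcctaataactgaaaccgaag
Maff, chr15:79347270-79347519, + strand: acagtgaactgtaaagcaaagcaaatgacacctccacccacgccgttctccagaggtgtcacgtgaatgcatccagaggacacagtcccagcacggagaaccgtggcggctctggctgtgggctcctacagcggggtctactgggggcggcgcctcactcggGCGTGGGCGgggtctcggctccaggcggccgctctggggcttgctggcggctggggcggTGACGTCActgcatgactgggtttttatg

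Both strands were searched for TGACGTCA and its core TGACGT, the AP-1 element TGAGTCA, the ETS-type element CCGGAAGT, the EGR-type element GCGTGGGCG, the box TATAAA and the CArG box bound by SRF. TGACATCA, an AP-1-like element, was added after the Jun sequence had been read. The table held windows for 8 of the 10 genes, all but Ier2 and Egr1, 10 windows in all because Maff has 3 annotated starts. The Fos window held TGACGT 66 to 61 bases before the start and TATAAA 33 to 28 bases before it. The Jun window held TGACATCA 45 to 38 bases before the start. In the printed Maff window TGACGTCA, which contains TGACGT on either strand, lay 29 to 22 bases before the start and GCGTGGGCG 88 to 80 bases before it, and another Maff start had TGACATCA 45 to 38 bases upstream. Fosl2 and Jund, although lower like Fos and Jun, had none of these letters in their windows, and neither had Fosb, Junb and Ier3. Of all 32851 windows in the table, 6.47% held TGACGT, 1.55% TGACGTCA, 2.93% TGACATCA, 4.46% TGAGTCA, 2.88% CCGGAAGT, 0.536% GCGTGGGCG, 12.4% TATAAA and 1.47% a CArG box. None of the 10 windows of these genes held TGAGTCA, CCGGAAGT or a CArG box. Sequence further than 250 bases upstream was not searched, so sites there would not be seen. The matches describe letters in these windows and not bound sites.

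JUN proteins are the obligate partners of FOS proteins. Jund, the JUN member that is usually present without stimulation, read 5.83 in EWS-OCT4A-GFP cells and 8.09 in control cells (probe set 17502001). The control was higher by 4.81-fold, a log2 difference of -2.27, and both values lay above the floor, by 1.73 at the least. Its second probe set (17510127) read 4.91 and 5.62, a difference of -0.71 or 1.63-fold, in the same direction but short of the threshold. The Jund differences were 1.56 apart, and their mean was -1.49. Among 479 genes with 2 probe sets at or above the floor, the median gap between the differences was 0.39 and the 90th percentile 1.52, and 46 of the 479 genes had a gap as wide as Jund or wider. The IDs of the array run along chromosomes and strands: of the 20 annotated probe sets with the nearest IDs, 19 belonged to genes on the strand of Jund for probe set 17502001, but 1 of 20 for probe set 17510127. For the other 7 genes with an annotated strand the count was 16 to 20 of 20. The sources used here do not say whether probe set 17510127 reads Jund transcripts or the opposite strand.

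Jun, which encodes c-JUN, the JUN protein most tied to growth factor and JNK signalling, read 4.78 in EWS-OCT4A-GFP cells and 6.82 in control cells. The difference was -2.04, or 4.10-fold. Among all 13516 genes that passed the floor, 3.43% had a difference as low as that of Jun or lower, and 2.63% one as low as that of Jund. Junos, a transcript annotated next to Jun and named here after its value was seen, read 3.65 and 3.81, below the floor in both samples. Junb, whose protein can oppose c-JUN at some targets and which is needed for placental development, read 5.69 and 5.95. Its difference of -0.26 was small beside those of Jun and Jund, and 33.7% of all genes at or above the floor were as low or lower.

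Of the FOS family, Fosl2, which encodes FRA-2, a FOS protein without the strong activation domain of c-FOS, read 4.51 in EWS-OCT4A-GFP cells and 5.80 in control cells. The control was 2.44-fold higher, a log2 difference of -1.29. Fos itself read 4.46 and 5.68, a difference of -1.22 or 2.33-fold. These differences were near the threshold and were not rare on the array, since 8.24% of genes at or above the floor were as low as Fosl2 and 9.09% as low as Fos. The EWS-OCT4A-GFP values of Fosl2 and Fos were within 0.41 of the floor, where array values compress. Fosb, a stimulus-induced FOS gene, read 4.24 and 4.34 and differed by -0.09. Both Fosb values were within 0.24 of the floor, so a difference could have gone unseen.

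Egr1, the zinc finger factor that shares serum and ERK induction with Fos, read 4.26 in EWS-OCT4A-GFP cells and 4.29 in control cells. The difference was -0.02, and both values were within 0.19 of the floor. Equal values at that level do not show equal transcript amounts. Maff, which encodes a small MAF protein that has a leucine zipper but no activation domain, read 4.02 and 4.51. Its difference of -0.49 was 1.40-fold, with the EWS-OCT4A-GFP value just under the floor.

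Ier2 and Ier3 are immediate-early genes outside the AP-1 family. Ier2, which encodes a small nuclear protein induced by growth factors, read 6.57 in EWS-OCT4A-GFP cells and 3.74 in control cells, the only one of the 10 genes with the clearly higher value in the EWS-OCT4A-GFP sample. The log2 difference was 2.84, or 7.14-fold. The control value lay under the floor, and with it set to the floor the difference was 2.48, or 5.57-fold. It was the 83rd highest difference of 13516 genes, and 0.614% of them were as high or higher. Ier3, a stress- and NF-kappaB-responsive gene that affects survival and ERK dephosphorylation, read 5.89 and 5.86, a difference of 0.03. Both Ier3 values were at least 1.76 above the floor, so its near equality, unlike that of Egr1 and Fosb, was not read at the edge of the measured range.

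**Figure D2:**
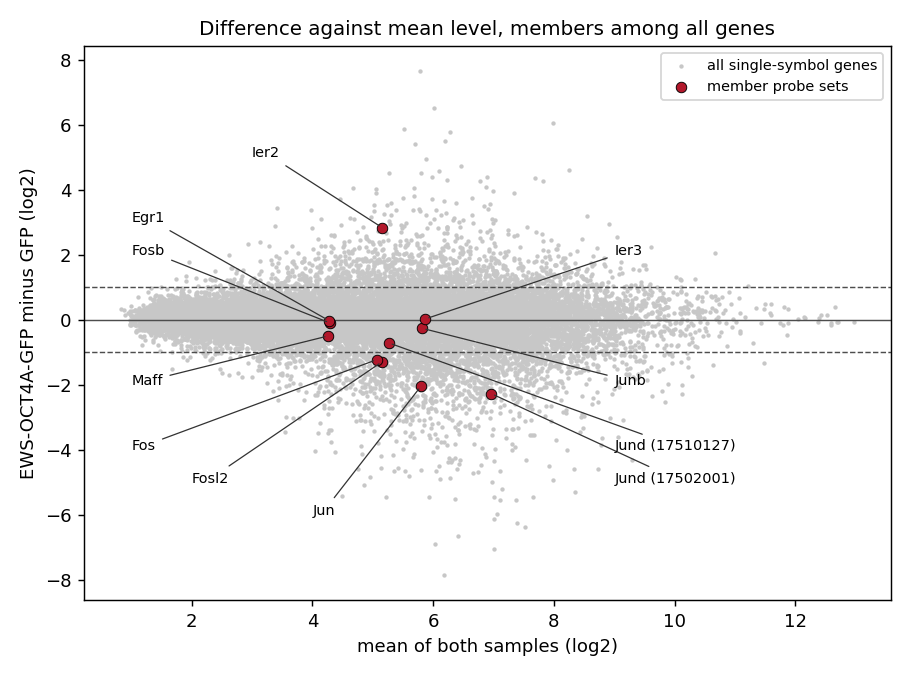
Difference between the samples (vertical axis, EWS-OCT4A-GFP minus GFP, log2) against the mean of both samples (horizontal axis, log2) for 22180 genes (grey) and the 11 probe sets (red, named). Dashed lines mark 2-fold. Ier2 at 2.84 lies in the upper part of the cloud, Jun (-2.04) and Jund (-2.27) lie in its lower part, and Egr1, Fosb and Maff sit at low mean levels near 0.

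The array also measured the partners, inputs and targets of these genes, which were followed in 11 lists. The lists too were chosen with earlier results of these data known. Of their 137 entries 123 were measured and 108 passed the floor. Of these, 35 (32.4%) were lower by 2-fold or more and 15 (13.9%) higher, beside 11.9% and 9.31% of all genes. The higher share was not far from that of all genes at 2-fold, but at 3-fold it was 9.26% beside 3.43%. Of the 15 higher genes 7 were ERK feedback and ETS genes, and the smallest of their differences was 3.34-fold (Etv4). The larger share at 3-fold thus lay mostly in that list. Among other AP-1 and MAF factors, 4 of 8 genes at or above the floor were at least 2-fold lower and 0 higher, with a median over all 10 measured of -0.45. Batf3, an AP-1 factor of immune cells, read 4.16 in EWS-OCT4A-GFP cells and 6.46 in control cells. Atf3, the stress-induced partner of JUN, read 4.64 and 6.49. The small MAF gene Mafk read 4.79 and 6.39, and Atf7, a constitutive partner of JUN, read 6.77 and 7.99. The median rests on few genes and moved to -0.89 over those at or above the floor.

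Among the partners of small MAF proteins, Bach1, a repressor of heme oxygenase and other oxidative stress genes, was the 1 of 4 genes at or above the floor that passed 2-fold, with a difference of -1.21. Of all genes 11.9% were at least 2-fold lower. Nfe2l1 (-0.92), Nfe2l2, which encodes NRF2 (-0.75), and Nfe2l3 (-0.09) were within 2-fold. Of the EGR family and its corepressors, Nab1, which encodes a repressor of EGR proteins, differed by -1.12 (5.02 against 6.14). Nab2, itself an EGR target, read 6.07 and 6.08. Egr3 (-0.47) and Egr4 (0.17) stayed within 2-fold, and Egr2 was below the floor in both samples, so the EGR genes as a family gave low readings here.

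Other immediate-early genes were lower more often than they were higher. Of 32 measured, 28 were at or above the floor, 15 of these (53.6%) were lower past 2-fold and 4 (14.3%) higher, beside 11.9% and 9.31% of all genes, with a median of -0.87 over the 32. The higher share was thus near that of all genes. Gadd45g, a stress- and differentiation-induced activator of MAP3K4, read 3.03 in EWS-OCT4A-GFP cells and 7.67 in control cells. Rhob, an immediate-early gene of a small GTPase, read 4.30 and 8.16. The zinc finger gene Klf6 read 6.77 and 9.62, and Csrnp1 read 5.49 and 8.17. These 4 had the largest differences of the list, from -4.64 to -2.68. The 4 higher genes, named after their values were seen, were Ccn2 (1.99) and Sgk1 (1.92), Nr4a1, which encodes the orphan receptor NUR77 (1.25), and Klf10 (1.00). Ccn1, the sister gene of Ccn2, differed by -2.32, so both directions occurred among closely related genes, as with Ier2 and its namesake Ier5 (-1.09), which were also picked after the values were seen.

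**Figure D3:**
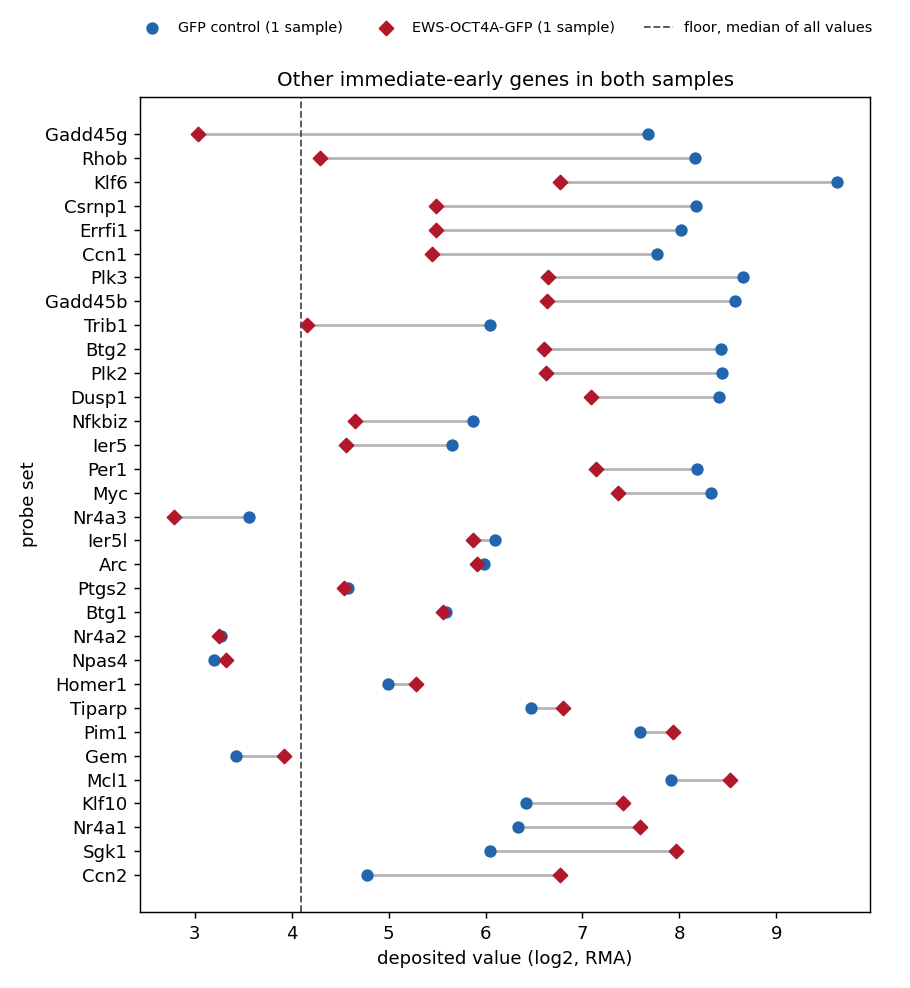
Deposited log2 value (horizontal axis) of the 32 other immediate-early genes (vertical axis), sorted by difference, in the GFP control (circles) and EWS-OCT4A-GFP (diamonds), 1 sample each, with the floor of 4.10 as a dashed line. The upper 15 genes, from Gadd45g to Per1, were at least 2-fold lower in EWS-OCT4A-GFP, and the 4 at the bottom at least 2-fold higher.

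Of the transcription factors that act on these promoters, Srf, which encodes the CArG box factor, read 6.18 in EWS-OCT4A-GFP cells and 6.14 in control cells. The ternary complex factor genes stayed within 2-fold too. Of 10 genes at or above the floor on the list of SRF, TCF, MRTF and CREB factors, 3 were at least 2-fold lower and 0 higher, with a median of -0.01 over all 11 measured and of -0.22 over the 10. The 3 lower genes were Crtc3 (-2.84) and Crtc2 (-1.06), coactivators of CREB, and Mrtfa (-1.35), the actin-regulated coactivator of SRF. Mrtfb, at -0.95, was within 2-fold. Of the RAS and MAP kinase genes, 2 of 15 (13.3%) were at least 2-fold lower, close to the 11.9% of all genes. They were Map3k1, a kinase upstream of JNK (5.91 against 8.01), and Mapkapk2, the p38 effector that stabilises AU-rich transcripts (5.26 against 6.77). Rps6ka5, which encodes the nuclear kinase MSK1 of histone H3 and CREB, read 5.66 and 4.56, and Map2k6 read 6.10 and 5.16. Kinase transcripts do not report kinase activity.

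Genes that ERK induces as feedback inhibitors or ETS effectors went the other way from Fos, Jun and most of the immediate-early genes. Of 11, all at or above the floor, 7 (63.6%) were higher past 2-fold and 1 (9.09%) was lower, beside 9.31% and 11.9% of all genes. The median of the 11 was 1.82. The ETS genes Etv5 (4.57) and Etv1 (3.89), the RAF inhibitor gene Spred1 (3.34) and the ERK phosphatase gene Dusp6 (2.98) differed most. The lower one was Dusp5, a nuclear ERK phosphatase gene, at -1.58.

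Genes known as AP-1 targets did not share a direction. Of 8 at or above the floor 3 (37.5%) were at least 2-fold lower and 1 (12.5%) higher, beside 11.9% and 9.31% of all genes. The median over the 12 measured was 0.00. Of the 12, 5 were above 0 and 5 below, counting genes that were below the floor in both samples. The median fell on Plau (4.94) and Ereg (4.63), named after their values were seen, which read the same in both samples. Of all 22180 genes 11008 were above 0 and 10223 below, so identical values were not rare. Why they occur was not tested. Hbegf, an EGF-family ligand, read 6.26 in EWS-OCT4A-GFP cells and 9.02 in control cells. Plaur, the urokinase receptor gene, differed by -1.36 and the collagenase gene Mmp9 by -1.04, whereas the cyclin gene Ccnd1 was higher by 2.01.

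Transcripts of Fos, Jun and Ier genes carry AU-rich elements, so genes of the proteins that bind them were also read. Zfp36l3, a placental member of the tristetraprolin family, read 3.95 and 10.1, a difference of -6.11. Zfp36, which encodes tristetraprolin and is itself an immediate-early gene, differed by -1.70. Zfp36l1 was within 2-fold at 0.87, and Elavl2, a stabilising protein gene, read 5.31 and 4.26, which passed it. Of 8 genes 2 (25.0%) were lower past 2-fold and 1 (12.5%) higher, beside 11.9% and 9.31% of all genes. The median of the 8 was 0.12 (0.00 under loess centring). The ubiquitin ligase genes that act on JUN, Det1 (0.83), Fbxw7 (0.28), Cop1 (-0.22) and Itch (0.00), all stayed within 2-fold. Itch had the identical value of 6.96 in both samples.

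**Figure D4:**
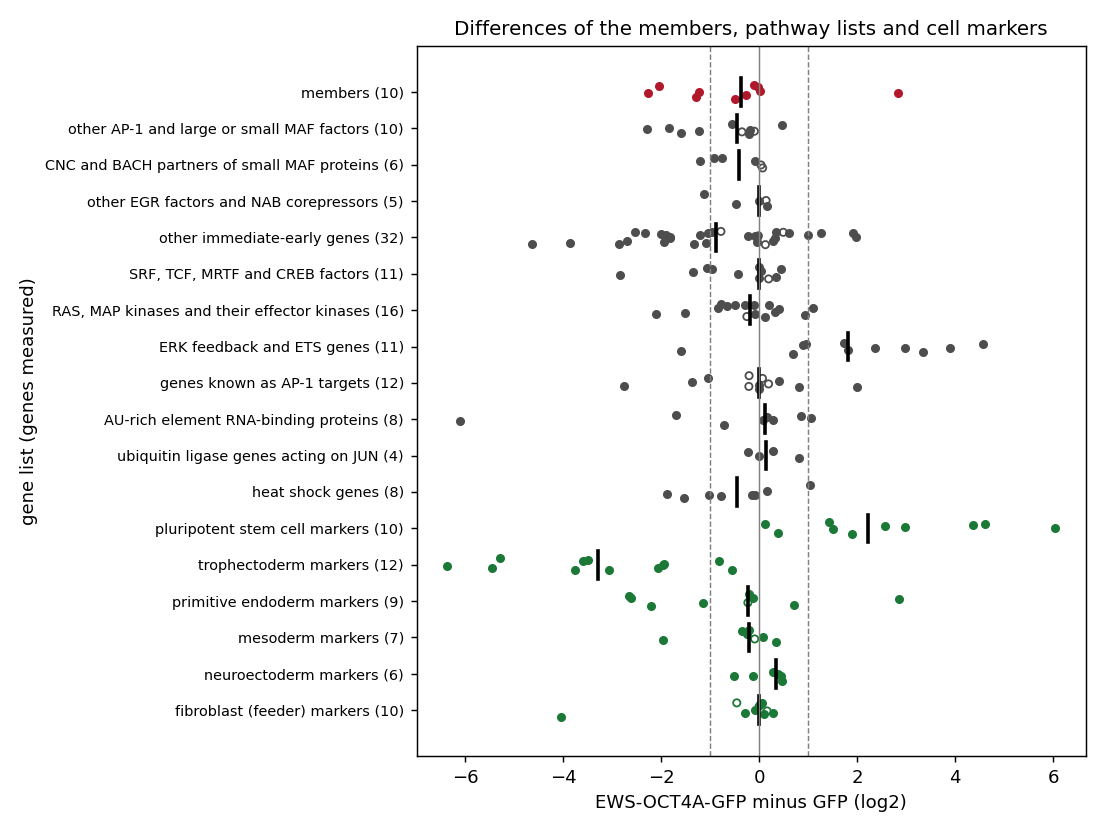
Difference between the samples (horizontal axis, EWS-OCT4A-GFP minus GFP, log2) of every measured gene of each list (vertical axis, number of genes in parentheses). Red marks the 10 genes described here, grey the pathway lists and green the cell markers; open circles are genes below the floor in both samples and bars are list medians. The ERK feedback and ETS genes (median 1.82) lie to the right, and the other immediate-early genes (-0.87) mostly to the left.

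Markers of cell type and of stress moved with the sample as well, and their part in the differences of the AP-1 genes was not tested. Of 10 pluripotent stem cell markers, 8 (80.0%) were higher past 2-fold in EWS-OCT4A-GFP cells, beside 9.31% of all genes. The median level of the 10 was 8.78 against 5.73. Tdgf1 (6.04), Nanog (4.61), Sox2 (4.37) and Esrrb (2.99) differed most. Of 12 trophectoderm markers, 10 (83.3%) were lower past 2-fold, beside 11.9% of all genes. The median level of the 12 was 4.39 against 7.92 in the control. Krt18 (-6.37), Gata2 (-5.45), Krt8 (-5.29) and Plac1 (-3.76) had the largest differences. The control, labelled as an embryonic stem cell line, had all 12 trophectoderm markers above the floor, and EWS-OCT4A-GFP cells had 9 of them above it at lower values. Pou5f1, the gene of endogenous OCT4, read 5.37 in EWS-OCT4A-GFP cells and 5.24 in control cells. The sources used here do not say whether its probe set also reads the OCT4A part of the transgene. Of 8 primitive endoderm markers at or above the floor, 4 were lower past 2-fold and 1 higher. The lower ones were Dab2 (-2.65), Col4a1 (-2.62), Gata6 (-2.21) and Pdgfra (-1.15), the last named after its value was seen, and the higher one was Lama1 (2.86). Mesoderm markers stayed within 2-fold (Tbx6 -0.34, Msgn1 0.34, Foxf1 -0.25) apart from Eomes (-1.95), which is also a trophectoderm marker. No neuroectoderm marker passed 2-fold, and Nes (-0.52), Map2 (0.46), Pax6 (0.46) and Tubb3 (0.39) differed most. Of the fibroblast markers, which would report feeder cells, Postn (-4.04) alone passed 2-fold, and Col3a1 (-0.28), Twist1 (0.28) and Thy1 (0.10) came next. Of 8 heat shock genes 3 (37.5%) were at least 2-fold lower, Hspa1a (-1.87), Hspa1b (-1.54) and Hspb1 (-1.02), and Hspd1 was higher at 1.04. Past 2-fold, 11.9% of all genes were lower and 9.31% higher. Hspa1a and Hspa1b are near-identical copies, so their probes may be shared. In bulk RNA, fewer cells of a type and less RNA per cell cannot be told apart.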

How the data were processed

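Transcripts were measured on an Affymetrix whole-transcript array in 2 samples. The authors deposited 1 value per probe set and sample, for 33793 probe sets, and per the submitters' processing notes they come from RMA in Affymetrix Expression Console 1.1. RMA includes quantile normalization between arrays, so a shift of most transcripts one way would not show. The deposited values are treated as log2, since they ran from 0.618 to 13.0, but the base is not stated. The design text speaks of duplicates, whereas each line has 1 column, which may be 1 array or a mean, so replicate spread is unknown, and the number of arrays limits the precision. Signal over background is unknown.

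Gene symbols come from the platform annotation (23521 with 1 symbol, 1814 with several, 8458 with none), and the IDs of all 10 genes matched a RefSeq table of GRCm38.p6. A gene stood for its probe set with the highest mean. Differences are EWS-OCT4A-GFP minus GFP, described by size (2-fold, floor of 4.10), with no test. The 10 genes and the lists were chosen with earlier results of these data known. Up to 4 genes per list with the largest absolute difference at or above the floor were named; others were named after their values were seen. Likeness of patterns was not computed over 2 samples. Alternatives were the size threshold (1.5-fold, 3-fold), the floor (none, 75th percentile, 6), the normalization (median, quantile, loess with a span of 0.3) and averaging of probe sets. The steps were tested on simulated data. Python 3.11.15, numpy 2.4.6, pandas 2.3.3 and statsmodels 0.14.6 were used.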

Additional observations from a re-analysis of the deposited data

How the results depend on the processing

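No paired analysis was possible because there is 1 sample per line, and no replicate could be left out. The 4 lower genes of the 10 became 2 (Jun and Jund) with a 3-fold threshold, with the floor at the 75th percentile (5.80) and with a floor of 6, while Ier2 was the 1 higher gene under all 9 alternatives. Fosl2 missed the floor at the 75th percentile narrowly, with 5.796 in control cells against 5.798. The median of the 10 genes moved from -0.38 to -0.26 with the floor at the 75th percentile and to -2.04 with the floor at 6; by construction these use fewer genes. All 40 values of single genes under the 3 normalizations and under averaging of probe sets stayed on the same side of 2-fold, and the largest move was that of Jund to -1.49 when its probe sets were averaged. On the 11 pathway lists, 23 genes (21.3%, beside 20.0% of all genes) in place of 15 were higher at 1.5-fold. At that threshold 44 (40.7%, beside 20.6%) in place of 35 were lower. At 3-fold 10 (9.26%, beside 3.43%) were higher and 20 (18.5%, beside 5.82%) lower. The 7 higher ERK feedback and ETS genes were among these 10. Median centring gave 14 higher and 35 lower, and loess centring 13 and 38. Of 77 list medians under alternatives, 22 moved by at least 0.1, mostly with a raised floor. The median of the AP-1 targets went from 0.00 to -1.36 with the floor at 6. That of the SRF, TCF, MRTF and CREB list went from -0.01 to -0.69 with either raised floor. Averaging of probe sets moved the median of the EGR and NAB list from -0.01 to -0.335 and that of the heat shock genes from -0.46 to -0.26. Some listed genes thus have further probe sets that differ from the one given here. Values near the floor limit what can be said of Egr1, Fosb and Maff.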

Other observations

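The genes next to the 10 on the RefSeq map (GRCm38.p6), 3 measured genes on each side, were read after the values of the 10 were known. Of these 60 genes 52 were at or above the floor, 2 of them at least 2-fold higher (Nacc1 and Tek) and 5 at least 2-fold lower. Over all genes at or above the floor the shares were 9.31% higher and 11.9% lower, and neither count of neighbours exceeded them. Of the 5 lower, 4 lay near genes that were within 2-fold, namely Vasp (-1.03) and Ppp1r13l (-1.70) near Fosb, Ddr1 (-1.70) near Ier3 and Csnk1e (-1.46) near Maff. Ier2 on chromosome 8 stood beside Nacc1, which encodes a BTB-domain nuclear protein of stem cells and read 9.05 in EWS-OCT4A-GFP cells and 6.36 in control cells, a log2 difference of 2.70. Nacc1 was thus higher by nearly as much as Ier2 (2.84). The next genes on that side, Trmt1 (0.56) and Lyl1 (-0.33), and those on the other, Cacna1a (0.97), Ccdc130 (-0.10) and Mri1 (0.73), were within 2-fold. Junb lies on the same chromosome, and its neighbours Prdx2 (0.53) and Hook2 (0.11) were within 2-fold, as was Junb.

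On chromosome 12 Fos is followed by Jdp2 and Batf, genes of 2 further AP-1 proteins. Both were lower but within 2-fold, with Jdp2 at 4.21 against 4.42 and Batf at 3.94 against 4.49, and the gene after them, Flvcr2, a transporter gene, differed by -2.43. The genes on the other side of Fos, Tmed10 (-0.41) and Nek9 (-0.59), were within 2-fold. Jund and Jun had no neighbour within 3 places that was at least 2-fold lower: Lsm4 (0.61) and Iqcn (-0.20) flank Jund, and Mysm1 (0.11) flanks Jun, while Tek, 3 places from Jun, was higher by 2.82. These are values of single genes in 2 samples with no test.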
